A study of Caenorhabditis elegans with 2 samples.

Results

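The regions described here are the 276 reproducible binding regions of a GFP-tagged transcription factor that lie in introns or between genes on the autosomes of Caenorhabditis elegans and lack the E-box CACGTG. They were taken from a deposited list of 1015 regions selected by irreproducible discovery rate (IDR), a measure of how consistently replicates rank a region. Of these, 744 lay on chromosomes I to V. A region belonged to the set if its summit, the base of highest signal, lay outside every promoter window (1000 bp upstream to 200 bp downstream of a protein-coding gene's annotated 5′ end), lay outside the exons of protein-coding genes, and had no CACGTG within 100 bp. By position, 131 were intronic and 145 were intergenic. The rule used position and sequence and no signal value.

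Chromatin immunoprecipitation with sequencing was performed on whole L3 larvae, mixed in sex, of strain OP355, which has the allele unc-119(tm4063) III and the integrated transgene wgIs355. There were 2 biological replicates of this 1 kind of sample, each called against a control alignment, so there was no untreated or comparison group. The labels disagree on the tagged protein. It is mdl-1 by the antibody and the strain, and eGFP-ZK337.2, which is klu-1 in the annotation, by the free-text description, so the protein is called the tagged factor here. A transgene expressed in whole animals does not tell which tissue a region was bound in, and no cell type can be assigned. No source used here gives the depth of sequencing, and intervals cover counting error over regions only.

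The E-box is the site of basic helix-loop-helix proteins of the Myc, Max and Mad family, to which MDL-1 belongs. MDL-1 is a Mad-like protein that pairs with MXL-1, and KLU-1 is a zinc finger protein of another family. In C. elegans, introns and the spaces between genes hold enhancers and the start sites of alternative transcripts, and repeats of GA are common in such regulatory DNA.

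The sequences around the 5 summits of highest signal in each class are shown first, so that the short motifs compared below can be read in them, present or not. Each is the plus strand of WBcel235 (ce11), 151 bases centred on the summit, 5′ to 3′. The comparisons below used 100 bp to each side of the summit, so a motif absent here can still be counted there. The 7-base element of the ogt-1 region is such a case. Capitals mark, on either strand, the GA repeat GAGAGA, the 7-base element CTGCGTC, the CA repeat CACACA and variants of the E-box, namely variant a CACGCG, variant b CACGAG and variant c CATGTG. A capital TCTCTC is thus the GA repeat on the minus strand. Likewise GACGCAG is the 7-base element there, and CGCGTG is variant a. The first 5 are intronic, in order of signal, from daf-5 (chrII:14040378-14040528), from zfp-1 at 3 summits (chrIII:8795797-8795947, chrIII:8802081-8802231 and chrIII:8800060-8800210) and from Y111B2A.12 (chrIII:12612615-12612765). The zfp-1 summits are told apart by their signal in the IDR list.
daf-5: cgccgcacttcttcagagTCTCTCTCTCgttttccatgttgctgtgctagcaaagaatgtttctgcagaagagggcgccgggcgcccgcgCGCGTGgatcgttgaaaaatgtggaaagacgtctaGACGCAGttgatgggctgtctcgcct
zfp-1, signal 126: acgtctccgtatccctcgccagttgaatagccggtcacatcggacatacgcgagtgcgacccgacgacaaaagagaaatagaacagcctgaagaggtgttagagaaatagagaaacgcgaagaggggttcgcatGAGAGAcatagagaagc
zfp-1, signal 124: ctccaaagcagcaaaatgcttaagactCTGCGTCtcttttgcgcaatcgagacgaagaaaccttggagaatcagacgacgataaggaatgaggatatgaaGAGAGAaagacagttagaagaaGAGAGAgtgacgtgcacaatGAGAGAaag
Y111B2A.12: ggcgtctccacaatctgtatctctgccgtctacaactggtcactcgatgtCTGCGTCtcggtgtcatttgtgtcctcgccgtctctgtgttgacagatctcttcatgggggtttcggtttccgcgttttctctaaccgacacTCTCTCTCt
zfp-1, signal 113: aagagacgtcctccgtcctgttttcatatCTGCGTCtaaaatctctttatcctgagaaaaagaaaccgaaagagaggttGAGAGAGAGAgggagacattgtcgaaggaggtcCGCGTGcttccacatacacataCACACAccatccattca

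The next 5 are intergenic and are named by the nearest gene 5′ end, mtm-3 (chrIII:3801443-3801593), ppm-2 (chrIII:4649390-4649540), ogt-1 (chrIII:7155775-7155925), egl-9 (chrV:10466670-10466820) and nhr-88 (chrII:2974024-2974174). The egl-9 window lies wholly within annotated non-coding RNA genes, and 87 bases of the ppm-2 window do.
mtm-3: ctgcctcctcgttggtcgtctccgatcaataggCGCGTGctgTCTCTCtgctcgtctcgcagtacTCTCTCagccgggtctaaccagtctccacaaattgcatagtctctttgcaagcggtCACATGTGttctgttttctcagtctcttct
ppm-2: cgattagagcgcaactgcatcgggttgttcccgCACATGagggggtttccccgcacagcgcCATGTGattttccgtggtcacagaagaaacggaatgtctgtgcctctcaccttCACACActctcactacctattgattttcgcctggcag
ogt-1: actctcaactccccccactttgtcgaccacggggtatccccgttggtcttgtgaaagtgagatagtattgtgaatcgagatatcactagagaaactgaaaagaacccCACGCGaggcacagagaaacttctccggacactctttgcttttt
egl-9: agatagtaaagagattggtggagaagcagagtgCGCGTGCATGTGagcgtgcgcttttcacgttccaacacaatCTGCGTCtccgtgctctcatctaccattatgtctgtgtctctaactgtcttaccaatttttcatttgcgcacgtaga
nhr-88: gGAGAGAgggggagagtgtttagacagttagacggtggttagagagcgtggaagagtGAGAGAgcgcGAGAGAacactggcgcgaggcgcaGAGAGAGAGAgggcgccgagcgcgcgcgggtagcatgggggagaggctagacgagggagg

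The signal of a region is a score the authors' caller gave it, with no stated scale, and it is used here only within a list. In the IDR list the intronic regions had a median signal of 39.2 (quartiles 31.3 and 52.7, range 26.1 to 157). The intergenic regions had a median of 36.9 (quartiles 30.02 and 48.8, range 25.9 to 291). Every intronic value lay within the intergenic range, while the 5 strongest regions, all intergenic, lay above every intronic one. The 95% intervals of the medians (35.0 to 42.8 and 33.9 to 39.0) overlapped. The ratio of the medians, intronic over intergenic, was 1.06 in the IDR list, 1.04 in replicate 1 and 1.07 in replicate 2. These ratios are a description without a test, since regions are not replicates. Under some other settings the ratio fell slightly below 1, as given in the closing section.

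**Figure D1:**
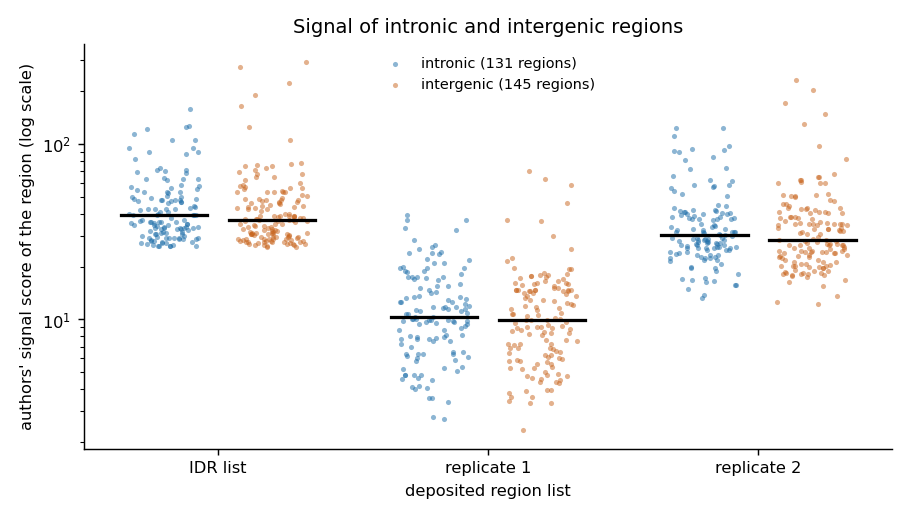
Signal score on a log scale (y axis) of intronic (131, blue) and intergenic (145, orange) regions in the IDR list and in each replicate list (x axis); each point is a region and each black bar a median. The medians are 39.2 and 36.9 in the IDR list, 10.4 and 9.95 in replicate 1, and 30.2 and 28.4 in replicate 2, and the highest points are intergenic in all 3 lists.

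The strongest regions were intergenic. The region upstream of mtm-3, which encodes a myotubularin-family lipid phosphatase, had a signal of 291 in the IDR list (rank 8), 62.8 in replicate 1 and 230 in replicate 2. The region upstream of ppm-2, which encodes a PP2C-family protein phosphatase, had 274 (rank 9), 69.6 and 202. Both lay just beyond the promoter window, at 1051 and 1029 bp upstream of the 5′ end. The region near ogt-1, which encodes the enzyme that attaches O-linked N-acetylglucosamine to proteins, had 223 (rank 15), 58.7 and 172, at 2053 bp upstream. The region near egl-9, which encodes the prolyl hydroxylase that marks HIF-1 for degradation, had 191 (rank 16), 46.3 and 149, at 1772 bp upstream. The region near nhr-88, a nuclear hormone receptor gene, had 164 (rank 19), 36.4 and 129.1, at 2540 bp upstream. All 5 kept a rank of 31 or better in each replicate list. The other 5 of the 10 strongest intergenic regions lay nearest to F58D5.5 (IDR signal 125), sup-26 (105), irld-18 (77.4), ubc-8 (76.6) and F54F12.1 (75.4). The irld-18 region lay farthest from a 5′ end among the 10, at 13324 bp.

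The strongest intronic region lay in the first intron of daf-5, which encodes a Sno/Ski-like protein of the TGF-beta pathway that controls dauer entry. Its signal was 157 in the IDR list (rank 23), 37 in replicate 1 (rank 28) and 124 in replicate 2 (rank 20). Its summit lay 11851 bp into the gene, in an intron of 14446 bp. A further 4 of the 10 strongest intronic regions lay in zfp-1, which encodes a homologue of the human chromatin protein AF10. Their IDR signals were 126, 124, 113 and 90.2, and their replicate 1 ranks ran from 25 to 95. The remaining 5 lay in Y111B2A.12 (122), pqn-41 (105), unc-108 (105), nhr-19 (95) and hxk-1 (94.3). PQN-41 is a glutamine-rich protein needed for death of the linker cell, UNC-108 is the Rab2 GTPase, and HXK-1 is a hexokinase.

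Presence in the replicates was close to that of the whole list. All 276 regions overlapped a region of replicate 2, and 264 (95.7%) overlapped one of replicate 1, against 93.8% of all IDR regions. Among the 1015 highest of replicate 1 were 176 (63.8%, against 65.8% of all IDR regions), and among the 1015 highest of replicate 2 were 233 (84.4%, against 86.6%). Of the 12 regions not listed in replicate 1, 5 were intronic and 7 intergenic, and the highest of them had an IDR signal of 47.7. Neighbouring regions can take their replicate value from the same broader region, which was so for 8 of the 276 in each replicate. The 2 neighbouring daf-5 summits, with IDR signals of 157 and 46.1, both read 37 and 124 in the replicates for that reason. A change of list had little effect on the split. The 1015 highest regions of replicate 2 alone gave 134 intronic and 143 intergenic regions by the same rule, and those of replicate 1 gave 148 and 155.

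Introns made up less of the set than of the sequence open to it. The rule allows 24.7 Mb of autosomal intron and 18.8 Mb of intergenic DNA, so introns are 56.7% of the allowed sequence, while 47.5% of the regions were intronic (95% exact interval 41.4 to 53.5). The density was 5.31 regions per Mb of allowed intron and 7.70 per Mb of allowed intergenic DNA. Chromosome III held the most, with 36 intronic and 32 intergenic regions. Intronic and intergenic counts were 28 and 26 on II, 26 and 23 on I, 22 and 34 on IV, and 19 and 30 on V. The middle of 3 equal parts of a chromosome, the gene-rich centre of worm autosomes, held 45% of intronic and 44.1% of intergenic regions. Positions taken every 200 bp over the allowed sequence fell there in 27.6% of cases for introns and 30.5% for intergenic DNA.

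The host genes of the 131 intronic regions were long. Of these genes 86 held 1 region and 17 held 2 or more. Their median length was 9905 bp, against 2030 bp for all autosomal protein-coding genes with an intron. The latter counts each gene once, whatever its amount of intron. Genes with more intron offer more positions for a region, so these medians are not like for like. The introns that held a region had a median length of 4254 bp, and 86.2% of the 130 placed in the longest transcript of the host were longer than 1000 bp, against 49.96% of allowed intron positions. First introns held 51 of 130 (39.2%, 95% exact interval 30.8 to 48.2), against 22.1% of allowed intron positions. These are descriptions without a test. In all, 7 host genes held 3 or more.

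The host with the most was zfp-1, with 5 regions and no region with an E-box. Their summits lay 3341, 4337, 5896, 8600 and 10621 bp from the 5′ end, and their IDR signals in that order were 33, 126, 90.2, 113 and 124. Only the one nearest the 5′ end was weak, with a signal of 3.57 in replicate 1 and 24.9 in replicate 2. The annotation places other zfp-1 transcripts' 5′ ends inside the gene, and 2 of the 5 summits fell in a promoter-sized window of such an end, at 967 bp and 663 bp from it. The 4 regions of pqn-41 all lay in 1 intron of 10372 bp, 15439 to 20666 bp from the 5′ end, with signals of 82.4, 43.6, 105 and 54.6. The 4 regions of ppfr-1, which encodes a regulatory subunit of protein phosphatase 4, had signals of 57.6, 42.3, 36.6 and 26.5. They lay beside 2 intronic regions with an E-box, of which the stronger had 142.

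The other hosts of 3 regions were daf-5, let-526, hlh-30 and pkg-2, and each also held at least 1 region with an E-box. In let-526, which encodes an ARID-domain subunit of the SWI/SNF chromatin remodeller, signals were 63.6, 41.2 and 30.5. In hlh-30, the worm TFEB gene that drives autophagy and lysosome genes, they were 56.3, 35.8 and 33.1, and the E-box region of that gene had 96.5. In pkg-2, a cGMP-dependent kinase gene, they were 55.3, 33.9 and 28, beside E-box regions of 76.0 and 52.3. In these 4 genes a region with an E-box was the stronger in hlh-30 and pkg-2, and a region without one was the stronger in daf-5 and let-526.

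**Figure D2:**
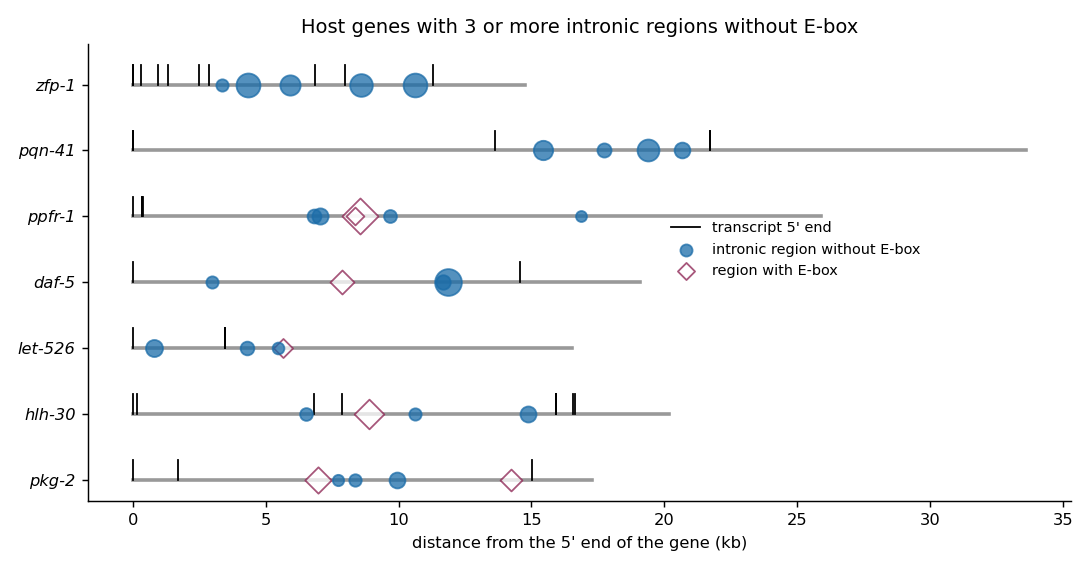
Position of IDR regions along the 7 host genes with 3 or more intronic regions that lack an E-box, as distance from the gene's 5′ end in kb (x axis); grey lines span the gene, vertical ticks are annotated transcript 5′ ends, blue circles are regions without and open diamonds regions with an E-box, and marker area grows with IDR signal. The zfp-1 and pqn-41 rows hold 5 and 4 circles and no diamond.

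Most host genes and nearest genes had no summit in their own promoter window, but the share with one was above that of all genes. A summit of the IDR list lay in the promoter window of 13 host genes (12.6% of the hosts, 95% exact interval 6.89 to 20.6) and of 11 of the 135 genes nearest to an intergenic region (8.15%, 4.14 to 14.1). Over all 17242 autosomal protein-coding genes the share was 2.29%. Both a host and a nearest gene at once were 6 genes. One of them was mtm-3, whose intronic region was weak (IDR signal 29.1, not listed in replicate 1) beside the 291 of its upstream region. The other genes nearest to a strong intergenic region, ppm-2, ogt-1, egl-9 and nhr-88, hosted no intronic region.

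Distance to gene starts depended on which starts were counted. The median distance from the summit to the nearest gene 5′ end was 3661 bp for intronic regions (95% interval 2994 to 4493, range 393 to 25669) and 2265 bp for intergenic ones (2048 to 2540, range 1029 to 13528). For allowed positions, the medians were 2215 bp in introns and 2717 bp in intergenic DNA, so intronic regions lay farther out than allowed intron does and intergenic ones nearer than allowed intergenic DNA does. Over 5000 bp away were 50 intronic regions (38.2%) and 17 intergenic ones (11.7%). The order turned when every annotated transcript 5′ end was used. The nearest transcript 5′ end was at a median of 1179 bp for intronic and 2228 bp for intergenic regions. The rule bears on this order. It keeps intergenic summits out of gene promoter windows, while intronic summits may lie beside transcript 5′ ends inside a gene. The shortest transcript distances were 38 bp for intronic and 857 bp for intergenic regions. No median of transcript distance was taken over allowed positions, so the part of the rule was not measured. In a promoter-sized window of some transcript 5′ end were 40 intronic regions (30.5%, 95% exact interval 22.8 to 39.2), against 11% of allowed intron positions. Among intergenic regions there was none, and the rule all but fixes that.

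**Figure D3:**
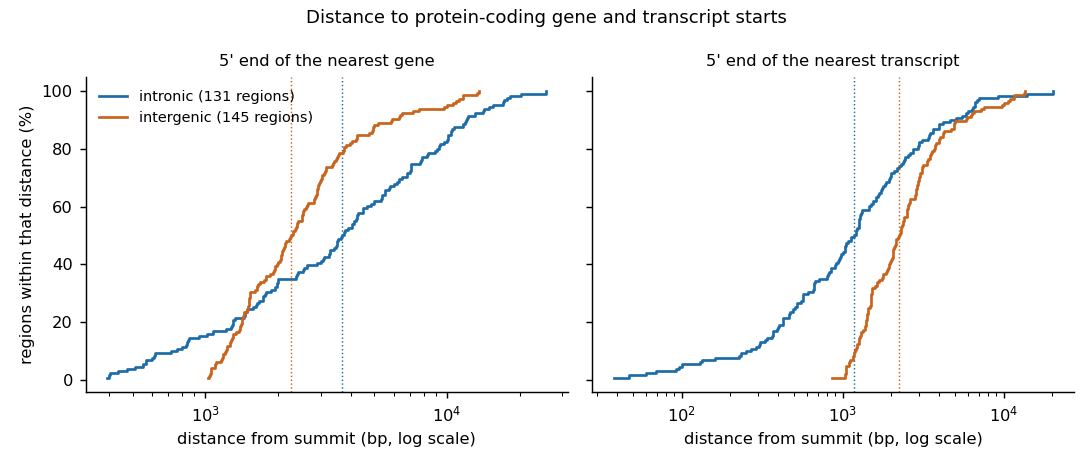
Cumulative share of regions (y axis, %) by distance from the summit to the 5′ end of the nearest protein-coding gene (left) or transcript (right), on a log scale in bp; blue is intronic, orange intergenic, and dotted lines are medians. The orange curve lies left of the blue over most of the gene panel (medians 2265 and 3661 bp) and right of it in the transcript panel (2228 and 1179 bp). The rule keeps summits out of gene promoter windows, which bears on both panels.

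Intergenic regions lay mostly upstream of the nearest gene. This held for 120 of 145 (82.8%, 95% exact interval 75.6 to 88.5), against 65.4% of allowed intergenic positions. Between 2 genes in tandem were 86, between divergent genes 50 and between convergent genes 9. Orientation was not counted over allowed positions, and the promoter windows of the rule bear on it, so these counts are a description only. The gap between the flanking genes had a median of 6028 bp. Soft-masked repeats, sequence the reference marks as repetitive, held 14.5% of intronic and 9.66% of intergenic summits, against 54% and 41.3% of the allowed positions. Within 500 bp of the 5′ end of a non-coding gene other than tRNA and piRNA genes lay 26% of intronic and 23.4% of intergenic summits, against 6.41% and 14.3% of allowed positions. At 30 of the 276 summits (10.9%) a non-coding gene was annotated, a share not counted over allowed positions.

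Yes-or-no features were then compared by Fisher's exact test, two-sided, with Benjamini-Hochberg adjustment over 34 tests in 3 contrasts, of which 2 (5.88%) were called at an adjusted p under 0.05. Between intronic and intergenic regions, 0 of 11 features were called, and 1 passed an unadjusted p of 0.05. That one was another IDR summit within 5000 bp, found for 51.1% of intronic and 37.2% of intergenic regions (difference 13.9 points, 95% interval 2.18 to 25.1, adjusted Fisher's exact p = 0.146). It was called without replicate 2, at 21.5 points (adjusted Fisher's exact p = 0.00149), and with a promoter window of 500 bp upstream to 100 bp downstream, at 18.1 points (adjusted Fisher's exact p = 0.0214). The 2 calls came from the contrast with the 230 autosomal promoter regions that also lack an E-box. Another summit within 5000 bp was more frequent in the 276 (43.8% against 23.5%, adjusted Fisher's exact p = 5.36e-05). A piRNA gene 5′ end within 500 bp was also more frequent (5.43% against 0.435%, 15 of 276 against 1 of 230, adjusted Fisher's exact p = 0.0220), and allowed positions had it in 5.13% of introns and 10.6% of intergenic DNA. The piRNA call was lost under 4 of 10 other settings, where its adjusted Fisher's exact p reached 0.767, and the call on neighbouring summits under 1, at 0.0676. Against the 127 intronic or intergenic regions that have an E-box, 0 of 12 features were called by Fisher's exact test, and 2 passed an unadjusted p of 0.05. These 2 were a signal at or above the median of the IDR list (44.2% against 57.5%, adjusted Fisher's exact p = 0.118) and a place among the 1015 highest of replicate 2 (84.4% against 93.7%, adjusted Fisher's exact p = 0.107).

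Summits of the IDR list were also chained wherever neighbours lay within 5000 bp. There were 78 such groups with a region of the set, and they held 121 of the 276. In 36 of them an IDR region with an E-box was also present, and 8 held 3 or more of the set. Among these 8, all regions of the set were intronic in zfp-1, pqn-41, ppfr-1, pkg-2, daf-5, hlh-30 and let-526. The remaining group, between W04D12.1 and ddx-23, held 3 intergenic regions. Regions of the set overlapped another of the set in 8 cases, and the sequence windows of 2 overlapped.

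Motifs were sought within 100 bp to each side of the summit. They were also sought in a window of equal size centred 500 bp to 1 side, free of other listed regions, and the pairs were compared by the exact McNemar test, two-sided, adjusted over 24 motifs and both classes. Of the 48 tests 22 (45.8%) were called. In introns 7 motifs were more and 3 less frequent at summits than at flanks, and in intergenic DNA 8 were more and 4 less frequent. GC content moved with this contrast. Its median was 48.0% at intronic summits and 36.3% at their flanks, and 46.3% and 32.1% for intergenic ones. Summits had the higher GC in 117 of 130 and 134 of 144 pairs, and the part of GC content in the motif calls was not tested.

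The GA repeat, sought as GAGAGA on both strands, was the most frequent motif. It lay at 67.7% of intronic summits and 9.23% of their flanks (adjusted exact McNemar p = 2.3e-17), and at 71.5% of intergenic summits and 9.72% of theirs (adjusted exact McNemar p = 2.19e-21). Windows of the same length over allowed sequence held it in 8.35% of intron and 10.5% of intergenic positions. The runs were short. The longest run of alternating G and A had a median of 6 bp in introns and 7 bp in intergenic regions, and a run of 20 bp or more occurred in 5 intronic and 4 intergenic regions. In the windows printed above, nhr-88 shows several copies of GAGAGA, and those of ppm-2, ogt-1 and egl-9 show none.

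The 7-base element CTGCGTC was rare at flanks. It lay at 31.5% of intronic summits against 2.31% of flanks (adjusted exact McNemar p = 5.97e-10), and at 31.2% of intergenic summits against 2.08% of flanks (adjusted exact McNemar p = 2.95e-10). Allowed sequence held it in 1.41% of intron and 1.53% of intergenic windows. The copy nearest the summit lay at a median of 43 bp from it in introns and 38 bp in intergenic DNA. The bases next to it were often the same. In 68 of 86 regions (79.1%, 95% exact interval 69.0 to 87.1) it was followed by TC, giving CTGCGTCTC, and the base before it was T in 83.7%. The hexamer GAGACG, which CTGCGTCTC contains on its minus strand, lay at 46.2% of intronic and 46.5% of intergenic summits against 6.15% and 8.33% of flanks. The element does not account for all of it. Of the 128 regions with the hexamer, 73 also had the element and 55 did not, and 82 (64.1%) had a copy outside CTGCGTCTC.

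The element and its surroundings are shown for 7 regions without annotated exons there, read on the strand that carries it, to show this context. Capitals mark CTGCGTC. The first is intergenic, near ogt-1 (chrIII:7155751-7155789, plus strand). The others lie in introns of daf-5 (chrII:14040483-14040521, minus), zfp-1 (chrIII:8802096-8802134 and chrIII:8800077-8800115, plus), pqn-41 (chrIII:1925420-1925458, plus), mnk-1 (chrII:10548975-10549013, plus) and Y43F8B.2 (chrV:19522891-19522929, minus).
ogt-1: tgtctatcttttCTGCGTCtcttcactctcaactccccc
daf-5: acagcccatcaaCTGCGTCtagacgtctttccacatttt
zfp-1, signal 124: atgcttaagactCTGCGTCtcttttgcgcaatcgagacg
zfp-1, signal 113: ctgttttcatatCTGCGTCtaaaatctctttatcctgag
pqn-41: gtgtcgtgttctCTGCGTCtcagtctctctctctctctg
mnk-1: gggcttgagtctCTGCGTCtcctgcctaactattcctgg
Y43F8B.2: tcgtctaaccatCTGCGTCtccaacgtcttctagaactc

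In introns the element had a preferred strand. It lay on the strand of the host transcript in 30 of 41 regions (73.2%, 95% exact interval 57.1 to 85.8). Relative to the nearest gene, it lay on the sense strand in 26 of 42 intergenic regions with copies on 1 strand (61.9%, 45.6 to 76.4). In intronic regions with an E-box the count was 10 of 13, and in promoter regions without one 33 of 54 (61.1%, 46.9 to 74.1). GAGAGA on 1 strand was on the antisense strand in 42 of 68 intronic and 55 of 77 intergenic regions. A further 21 intronic and 26 intergenic regions had it on both strands. The sense share was 38.2% in intronic regions (95% exact interval 26.7 to 50.8) and 28.6% in intergenic ones (18.8489 to 40.0035). Outside the set, GAGAGA was antisense in 25 of 37 intronic regions with an E-box (sense share 32.4%, 18.01 to 49.8). In promoter regions without an E-box it was antisense in 64 of 114 (sense share 43.9%, 34.6 to 53.5). The intervals of the intronic regions of the set and of the promoter regions included an equal split. CACACA on 1 strand was sense in 25 and antisense in 26 intronic regions, in 22 and 28 intergenic regions, and in 6 and 11 intronic regions with an E-box. These strand counts were looked at after other results were known and carry no test.

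CACACA lay at 41.5% of intronic summits against 8.46% of flanks (adjusted exact McNemar p = 4.25e-09) and at 37.5% of intergenic summits against 6.94% (adjusted exact McNemar p = 8.96e-10). At least 1 of the GA repeat, the CA repeat and the 7-base element was present in 237 of the 276 regions (85.9%). The share of flanks or allowed sequence with any of these motifs was not counted. Of the 86 with CTGCGTC, 72 (83.7%) also had GAGAGA, and of the 190 without it 120 (63.2%) did. All 10 of the strongest intronic regions had GAGAGA and 7 of them had CTGCGTC. Of the 10 strongest intergenic regions, 6 had GAGAGA and 4 had CTGCGTC.

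**Figure D4:**
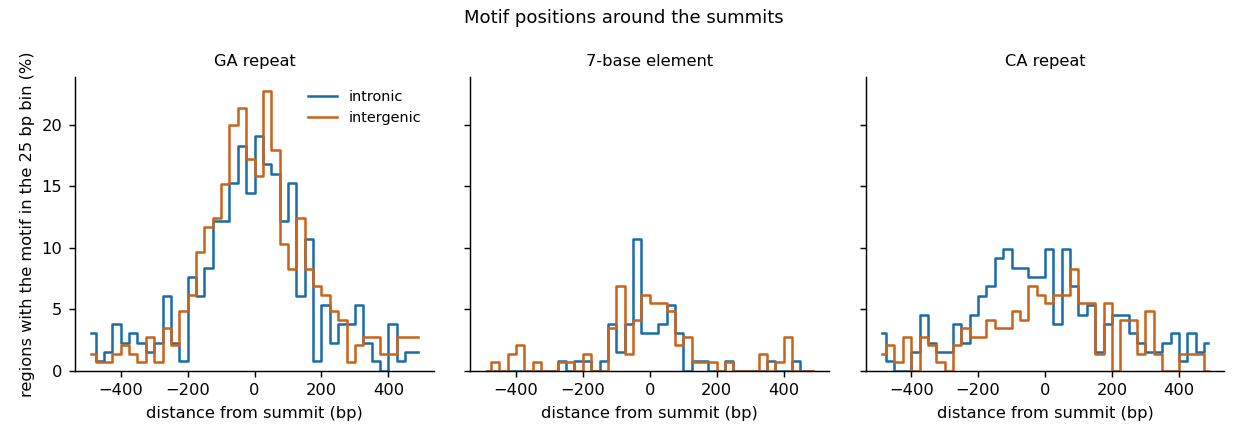
Share of regions (y axis, %) with a motif in each 25 bp bin by distance from the summit in bp (x axis), for GAGAGA (GA repeat), CTGCGTC (7-base element) and CACACA (CA repeat); blue is intronic, orange intergenic. GAGAGA peaks near the summit at 19.1% of intronic and 22.8% of intergenic regions, with a median of 1.91% and 1.72% in bins 300 bp or more away.

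Variants of the E-box were also frequent. CACGCG lay at 20% of intronic summits against 3.08% of flanks (adjusted exact McNemar p = 0.000132) and at 12.5% of intergenic summits against 2.08% (adjusted exact McNemar p = 0.00376). The latter difference was 6.45 points without replicate 2 (adjusted exact McNemar p = 0.196). CACGAG lay at 20.8% against 3.85% in introns (adjusted exact McNemar p = 0.000238) and at 16% against 4.17% in intergenic DNA (adjusted exact McNemar p = 0.00273). CATGTG lay at 22.3% against 7.69% (adjusted exact McNemar p = 0.00372) and at 20.1% against 3.47% (adjusted exact McNemar p = 1.62e-05). The intronic CATGTG call was lost under 3 of 12 other settings, where its adjusted exact McNemar p reached 0.123. With the higher-signal part of the list, the calls of CACGCG in both classes and of CACGAG in intergenic DNA were lost as well. Further variants, among them CACGTT, were not called in either class. At least 1 of these variants a to c or CACGTT was present in 157 of the 276 regions (56.9%). The share of flanks or allowed sequence with any of them was not counted, so this share has no background beside it. A CACGTG farther out, more than 100 and at most 500 bp from the summit, was present in 16.8% of intronic and 15.9% of intergenic regions. Autosomal promoter regions without an E-box had one at that distance in 13.5% of cases.

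AT-rich motifs were scarcer at summits. TTTTTTTT lay at 7.69% of intronic summits against 20% of flanks (adjusted exact McNemar p = 0.00893) and at 9.03% of intergenic summits against 26.4% (adjusted exact McNemar p = 0.00119). TAATTA, a homeodomain core, and TTTCAG, which matches the consensus of worm splice acceptors, were likewise called lower in both classes. Several of these calls were lost when a replicate was left out. The TTTTTTTT difference in introns was -10.5 points without replicate 1 (adjusted exact McNemar p = 0.0700) and -7.43 points without replicate 2 (adjusted exact McNemar p = 0.190), and in intergenic DNA it was -10.5 points without replicate 1 (adjusted exact McNemar p = 0.0601). The TTTCAG difference in introns was -4.73 points without replicate 2 (adjusted exact McNemar p = 0.478). The TAATTA call in introns was lost under 7 of 12 other settings. GAANNTTC, the core of the heat shock element, was called lower in intergenic regions, at 4.17% against 19.4% (adjusted exact McNemar p = 0.00072), and not in introns, at 2.31% against 9.23% (adjusted exact McNemar p = 0.0734). TGATAA, the site of ELT-2 and related intestinal and hypodermal factors, was called higher in intergenic regions, at 20.8% against 9.72% (adjusted exact McNemar p = 0.0446), and not in introns, at 10% against 19.2% (adjusted exact McNemar p = 0.116). The intergenic TGATAA call was lost under 10 of 11 other settings, and the difference was 5.59 points without replicate 1 (adjusted exact McNemar p = 0.466) and -1.29 points without replicate 2 (adjusted exact McNemar p = 0.921).

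**Figure D5:**
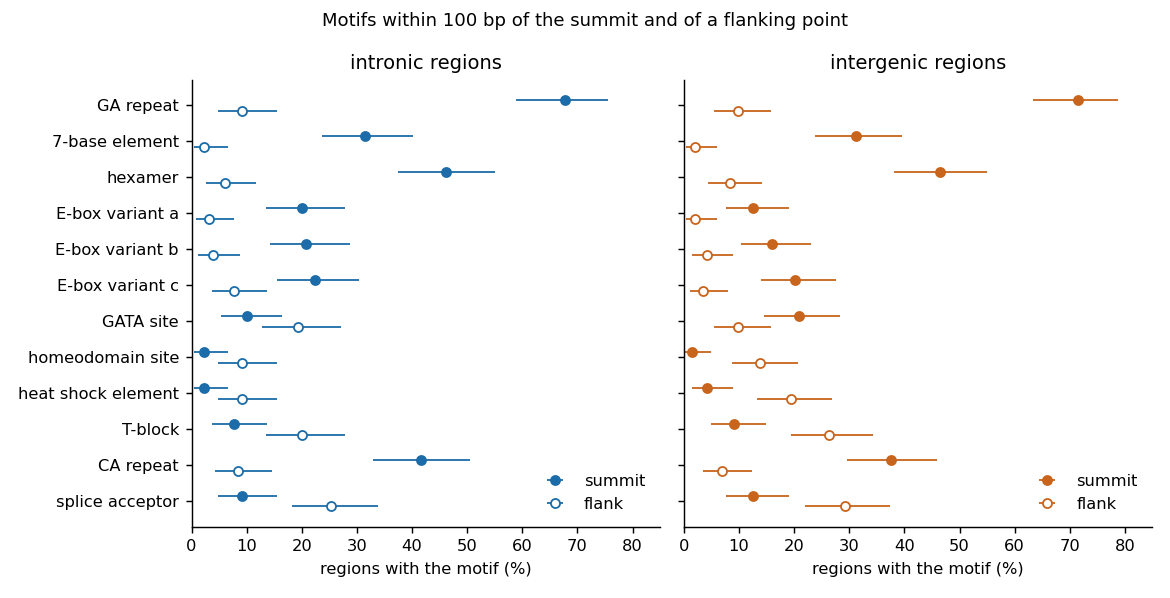
Share of regions (x axis, %) with each of the 12 motifs called in either class, within 100 bp of the summit (filled) and of a flanking point (open), in intronic (130, left) and intergenic (144, right) regions; bars are 95% exact intervals. E-box variant a is CACGCG, variant b is CACGAG, variant c is CATGTG, and the point named hexamer shows GAGACG. The filled points stand far right of the open ones for the GA repeat (67.7% and 71.5%), and the same 3 motifs have the highest filled points in both panels.

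Between the classes, 0 of 24 motifs (0% called) differed by Fisher's exact test, two-sided and adjusted over the motifs, and 1 passed an unadjusted p of 0.05. That one was TGATAA, with 10.7% of intronic and 20.7% of intergenic summits (difference -10 points, 95% interval -18.4 to -1.33, adjusted Fisher's exact p = 0.758). The difference was -3.10 points for GAGAGA (95% interval -13.9 to 7.68) and 0.263 points for CTGCGTC (-10.5 to 11.2). For CACGCG, more frequent in introns, it was 7.51 points (-1.33 to 16.5). Differences up to the bounds of these intervals were not resolved with this many regions.

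Compared with other regions of the list, 5 of 48 motif shares (10.4%) were called by Fisher's exact test. The 127 intronic or intergenic regions with an E-box were split from the set by CACGTG in these same windows. CACGCG and CACGAG each differ from CACGTG by 1 base, so their shares are not independent of that split. Against these 127 regions, the set had more CACGCG (16.7% against 4.72%, adjusted Fisher's exact p = 0.0104), more CACGAG (18.1% against 5.51%, adjusted Fisher's exact p = 0.0104) and more CACACA (39.1% against 22.8%, adjusted Fisher's exact p = 0.0155). It had less TGTCAT, part of the SKN-1 site (6.52% against 19.7%, adjusted Fisher's exact p = 0.00872). Against the 230 promoter regions without an E-box it had more GAGAGA (69.6% against 55.7%, adjusted Fisher's exact p = 0.0155). Without replicate 2, 4 of the 5 calls were lost, all but that of CACGAG, with adjusted Fisher's exact p-values of 0.108 for CACGCG, 0.636 for TGTCAT and CACACA and 0.0996 for GAGAGA. Without replicate 1 the CACGAG call was lost (adjusted Fisher's exact p = 0.0530). With a promoter window of 2000 bp upstream to 500 bp downstream all 5 were lost, at adjusted Fisher's exact p-values of 0.143 to 0.165. Of 10 other settings that bear on these shares, the calls of CACGCG and CACACA were each lost in 5 and the other 3 calls each in 3, with no change of direction. CTGCGTC was not called in either contrast. Its share was 31.2% in the set, 21.3% in the regions with an E-box (adjusted Fisher's exact p = 0.171) and 23.5% in the promoter regions (adjusted Fisher's exact p = 0.187). Median GC was 43.3% in the E-box regions and 45.3% in the promoter regions, and its part in these calls was not tested.

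A scan of all 2080 6-mers, both strands merged, called 627 (30.1%) between summits and flanks of both classes together by the exact McNemar test, 333 higher and 294 lower at summits. The lowest p belonged to AGAGAG, at 66.4% of summits against 8.03% of flanks. AGAGAC (52.6% against 6.93%), AGACGC (39.4% against 4.74%) and CGCAGA (40.1% against 5.84%) were also among the first 13. These last 3 share letters with the minus strand of the extended 7-base element or with a GA run. In the other direction the lowest p belonged to AAAATT, at 13.5% of summits against 65.0% of flanks. Overlapping 6-mers are not separate findings.

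The host and nearest genes were set against 20 gene lists, of which 15 had at least 1 host or nearest gene. Some genes are in 2 lists, and these counts carry no test. In the list of transcription factors other than nuclear receptors, homeobox and helix-loop-helix genes, 8 hosts (7.77% of the hosts) and 2 of 135 nearest genes (1.48%) were members, and 7.63% of intronic regions lay in them. The list is 0.47% of all genes and 1.33% of allowed intron. Genes of the list were nearest to 1.38% of intergenic regions, against 1.09% of allowed intergenic DNA. Among its hosts were zip-2, a bZIP gene of the pathogen response (IDR signal 69.8, replicates 18 and 57.5), mef-2 (62.8, 26 and 28.1) and daf-16, the FoxO factor of the insulin pathway (52.4, 11.8 and 41.9). Its nearest genes were klf-1 and egl-27. Helix-loop-helix hosts were hlh-30, described above, and hif-1, the hypoxia factor that EGL-9 modifies (30.8, 19.7 and 19.8). That list held 3.05% of intronic regions against 0.248% of allowed intron, and had 0 nearest genes. Of its 4 intronic regions, 3 lay in hlh-30 alone. Nuclear hormone receptor genes gave 3 hosts and 4 nearest genes. They held 2.29% of intronic regions against 1.28% of allowed intron. They were nearest to 2.76% of intergenic regions against 1.92% of allowed intergenic DNA. Besides nhr-19 and nhr-88, nhr-46 was a host (53), and nhr-21 was both a host (39.5) and nearest to a region (48.4). The other nearest genes of that list were nhr-105 and nhr-10.

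In the list of the insulin, TOR and AMPK pathways there were 3 hosts with 5 regions and 2 nearest genes, where the list is 0.145% of all genes and 0.639% of allowed intron. These genes held 3.82% of intronic regions. They were nearest to 1.38% of intergenic regions, against 0.178% of allowed intergenic DNA. The daf-2 gene, which encodes the insulin receptor, held a region in its first intron, 4643 bp from the gene's 5′ end. Its signal was 69.5 in the IDR list, 17.5 in replicate 1 and 51.9 in replicate 2. The aakg-1 gene, for an AMPK gamma subunit, held 2 regions of 42.5 and 26.1, and pptr-1, for a regulatory subunit of protein phosphatase 2A, was nearest to one of 44.7. The other nearest gene was crtc-1. In the list of Wnt, Notch, TGF-beta and EGF/Ras signalling the hosts were daf-5, lag-1 and mpk-1, and mpk-1, the ERK kinase, held a region of 68.3. Nearest genes there were daf-4, a type II TGF-beta receptor (48.0), and lip-1, a MAP kinase phosphatase (36.9). This signalling list held 4.58% of intronic regions against 0.927% of allowed intron. It was nearest to 1.38% of intergenic regions against 0.508% of allowed intergenic DNA.

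Among heterochronic genes, which time larval development, lin-42, the Period homologue, held 2 intronic regions of 71.3 and 29, din-1 held 1 of 36, and lin-41 was nearest to one of 46.2. These genes held 2.29% of intronic regions against 0.301% of allowed intron. They were nearest to 0.690% of intergenic regions against 0.139% of allowed intergenic DNA. Among autophagy and lysosome genes, lgg-2, an LC3 homologue, was a host (46.5), and unc-51, the ULK1 homologue (49.1), and epg-9 (36.5, not listed in replicate 1) were nearest genes. The autophagy list, hlh-30 included, held 3.05% of intronic regions against 0.362% of allowed intron. Of its 4 intronic regions, 3 lay in hlh-30, and the same 3 are counted in the helix-loop-helix list. The autophagy list was nearest to 2.07% of intergenic regions against 0.137% of allowed intergenic DNA. Lipid metabolism had 0 hosts and 4 nearest genes, led by cpt-1, a carnitine palmitoyltransferase gene (60.1), and acs-4, an acyl-CoA synthetase gene (44.5). That list is 0.770% of allowed intron, and was nearest to 2.76% of intergenic regions against 0.562% of allowed intergenic DNA. The other lists with members were neuropeptides and insulin-like peptides (ins-13, 32), muscle (the actin genes act-1, 43.8, and act-3, 30.7), adhesion (plx-1, 29.6, and unc-70, 27.6), chaperones (dnj-20, 29.3), hypodermis (mup-4, 29.2, and vab-10, 26.1), membrane traffic (led by rme-1, 44.3, and unc-31, 34.7) and chemoreceptors (srh-2, 34.8). Shares of intergenic regions against allowed intergenic DNA were 0.690% against 1.39% for neuropeptides, 1.38% against 0.370% for muscle and 1.38% against 1.21% for adhesion. For membrane traffic the share was 2.07% against 0.505%. Shares of intronic regions against allowed intron were 0.763% against 0.341% for chaperones, 1.53% against 0.816% for hypodermis and 2.29% against 1.47% for membrane traffic. Adhesion genes hosted 0 against 2.35%.

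Several lists had few regions or none. Ion channels and neurotransmitter receptors, which hold 3.24% of allowed intron, hosted 0 of 131 intronic regions, which allows a share of up to 2.78% by the exact 95% interval. They were also nearest to 0 of 145 intergenic regions. Homeobox genes, ribosomal protein genes, cuticle collagens and the intestine list also had neither, but these lists are small. In that order they hold 0.663%, 0.0178%, 0.19% and 0.323% of allowed intron. Their shares of allowed intergenic DNA are 1.00%, 0.243%, 0.737% and 0.541%. At such shares a count of 0 is uninformative. Chemoreceptor genes are 7.40% of all genes and 6.69% of allowed intergenic DNA, and they had 1 host and 0 nearest genes.

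At the edges of the rule, the regions just outside the promoter window on the side of the set were those of ppm-2 (1029 bp upstream, signal 274), hint-3 (1038 bp, 55.7), ccb-1 (1047 bp, 55.9) and mtm-3 (1051 bp, 291). Just inside that window, and so left out, were regions at sup-1 (991 bp upstream, 30.01) and otub-2 (988 bp, 38.2), and on the downstream side at K05F1.6 (26.4) and ZK112.4 (28.2). By E-box distance, 2 regions of the set had a CACGTG immediately beyond 100 bp (signals 75.1 and 27.3), 1 at 102 bp (48.1) and the nhr-88 region at 107 bp (164). Left out were regions with one at 97 bp (27.9), 96 bp (43.2), 94 bp (104.4) and 89 bp (73.1).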

How the data were processed

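The authors deposited lists of called regions for build ce11: 1 per replicate (15898 and 30000 regions), 1 from both replicates pooled (30000) and the IDR list (1015), per the labels and the deposited file descriptions. The signal column is a score of the authors' caller. The aligner, the caller, the IDR cutoff and the depth of sequencing are not given in any source used here. Lists made for ce10 were not used here.

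Positions were classed with Ensembl release 115 (WBcel235), whose chromosome lengths contain all ce11 regions, and sequence was read from the RefSeq genome of that assembly. A replicate's signal is the highest of its regions overlapping by at least 1 bp. Allowed sequence was sampled every 200 bp. Motifs were searched on both strands in windows of 201 bp. The side of each flank was drawn at random once (seed 13), the other side was taken where a listed region lay there, and 2 regions had no free flank. Shares were compared with exact McNemar and Fisher's exact tests, two-sided, with Benjamini-Hochberg adjustment at 0.05. These p-values measure counting over the regions of 1 list, not variation between animals. Intervals of shares are exact Clopper-Pearson, those of differences Newcombe, and those of medians exact order-statistic, all at 95%. The motif test was tested on simulated sequence.

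The members, the 20 gene lists, the 24 motifs and the tests were chosen with earlier results of these data known, so patterns already seen in these data are no independent support. The comparison of motif shares with other regions and the strand counts were added later. Named genes were hosts of the 10 strongest intronic regions, nearest genes of the 10 strongest intergenic ones, the 5 hosts of most regions, up to 4 genes per list with the strongest region, and regions at the rule's edges. The genes hlh-30, pkg-2, mnk-1, lag-1, crtc-1, klf-1, egl-27, nhr-105 and nhr-10 and the genes of the remaining group of regions were named after their values were seen. Python 3.11.15, numpy 2.4.6, scipy 1.17.1 and matplotlib 3.10.9 were used.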

Additional observations from a re-analysis of the deposited data

How the results depend on the processing

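No paired analysis was possible because there is 1 group of samples. Of 14 alternatives, 12 bore on motifs at summits, 11 of them in intergenic regions, since windows around all transcript 5′ ends left these as they were. In all of these the GA repeat, the CA repeat, the 7-base element and the hexamer GAGACG stayed called against flanks, with adjusted exact McNemar p-values of 0.00103 or below. No motif was called between intronic and intergenic regions in the 10 that bear on it. Leaving out a replicate (the 1015 highest regions of the other one) gave a median signal ratio of 0.967 to 1.02 and 0 to 1 features that differ between the classes, that 1 being another summit within 5000 bp. For TGATAA in intergenic regions, the difference from flanks was -1.29 points without replicate 2 and 5.59 points without replicate 1. The higher-signal part of the list, 507 regions, gave 62 intronic and 59 intergenic regions, an intergenic median distance of 2622 bp, a ratio of 1.00, 5 and 6 called motifs and 326 called 6-mers, with fewer regions tested, and 16 of 29 called shares were lost there. A promoter window of 500 bp upstream to 100 bp downstream gave an intron share of 41.03%, an intergenic median distance of 1660.5 bp, a ratio of 0.993 and 1 feature that differs. One of 2000 bp upstream to 500 bp downstream gave 90 intergenic regions, an intron share of 56.7%, a distance of 2988 bp and a ratio of 0.993, and 7 of 29 called shares were lost, among them all 5 against other regions of the list. Windows around all transcript 5′ ends gave an intron share of 38.6%. Motif windows of 50 bp to each side gave 6 called motifs in introns and 356 6-mers. Leaving out exons of any gene, an alternative chosen after seeing the data, gave a ratio of 0.996. The ratio of medians thus lay on both sides of 1. Where no cause follows from the setting itself, the cause was not tested. The replicates number 2, depth is unknown, and all p-values count regions of 1 list.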
